A study of Mus musculus with 69 samples.

Results

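The 10 genes described here encode transcriptional regulators of the smooth muscle phenotype: Srf, its coactivators Myocd, Mrtfa and Mrtfb, its ternary complex partner Elk1, the Krüppel-like factors Klf4 and Klf5, Gata6, Tcf21 and Lmcd1. They were chosen by name, with earlier results of these data known, and all 10 were found by Ensembl identifier among the 56953 genes of the count tables. Their RNA was measured by poly(A) RNA-Seq in 69 libraries of cultured primary cells from male C57BL/6 mice. The study asked whether stressors that accompany obesity act jointly on vascular cells, and whether vascular smooth muscle cells need the EGF receptor (EGFR) for that response.

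WT VSMC were aortic smooth muscle cells of wild-type mice, with 16 libraries in 4 sets (sets 1 to 4). KO VSMC were the same kind of cell from mice with floxed Egfr alleles and a Cre recombinase driven by the SM22 promoter, with 15 libraries in sets 5 to 8. EC were endothelial cells from the heart, labelled wild type, with 38 libraries in 10 sets (sets 9 to 18). A set is 1 animal at 1 passage, split over the conditions, except that EC sets 17 and 18 came from 1 animal, which leaves 9 EC animals. The cells were kept for 24 h without serum and supplements and then for 24 h under one of 4 conditions. These were Control, HG + FFA (20 mM glucose with oleate and palmitate at 100 µM each), AII + NA (30 nM angiotensin II with 300 nM catecholamine, epinephrine in the labels and norepinephrine in the methods) and ALL (both together). WT VSMC had 4 libraries in each condition and KO VSMC had 4, except 3 in ALL. EC had 9 libraries in Control, 10 in HG + FFA, 9 in AII + NA and 10 in ALL. VSMC came from the aorta and EC from the heart, under different batch labels (B1 and B2), so that cell type, organ and batch cannot be told apart. A library held between 17166133 and 43240489 counts.

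SRF is a DNA-binding protein that recognises the CArG box in the control regions of contractile, cytoskeletal and growth-response genes. Myocardin, encoded by Myocd, and the related MRTF proteins, encoded by Mrtfa and Mrtfb, bind SRF and switch on contractile and cytoskeletal genes, with the MRTFs held in check by actin monomers. Ternary complex factors such as ELK1 compete with them for SRF and drive immediate early genes after MAP kinase signalling. KLF4 and KLF5 are zinc finger proteins known from VSMC that lose contractile genes, GATA6 and TCF21 mark mesodermal lineages and their fate choices, and LMCD1 is a LIM domain protein that can restrain GATA6.

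Positions are given on GRCm39. Srf (ENSMUSG00000015605) lies on chromosome 17 from 46857767 to 46867119 on the minus strand. Myocd (ENSMUSG00000020542) lies on chromosome 11 from 65067387 to 65160828 on the minus strand. Mrtfa (ENSMUSG00000042292) lies on chromosome 15 from 80896482 to 81074969 on the minus strand, and Mrtfb (ENSMUSG00000009569) on chromosome 16 from 13073858 to 13235394 on the plus strand. All are protein-coding genes, and each count is over the exons of the whole gene. Elk1 (ENSMUSG00000009406) lies on chromosome X from 20798091 to 20816852 on the minus strand. Klf4 (ENSMUSG00000003032) lies on chromosome 4 from 55527139 to 55532528 on the minus strand, and Klf5 (ENSMUSG00000005148) on chromosome 14 from 99536086 to 99552473 on the plus strand. Tcf21 (ENSMUSG00000045680) lies on chromosome 10 from 22692803 to 22696073 on the minus strand, and Lmcd1 (ENSMUSG00000057604) on chromosome 6 from 112250719 to 112307388 on the plus strand. Gata6 is ENSMUSG00000005836. Other genes overlap 18.5% of the exonic bases of Tcf21 (Gm10824), 12.8% of Mrtfa (Sgsm3 and 4930483J18Rik) and 12.5% of Gata6 (Gata6os), and at most 4% in the other members. Since the strand setting of the counting is not stated, reads from these overlaps cannot be assigned with certainty.

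Because SRF acts on its own gene and on many contractile genes through the CArG box, the 250 bases upstream of the start were searched for it in the members. The box was defined as CC, then 6 bases of A or T, then GG, and a match reads as a match on both strands. RefSeq promoter sequences (GRCm38.p6) were at hand for 7 of the 10 members. Of 32851 mouse promoters in the same table, 1.47% held at least 1 box. Srf held 2, from base -82 to -73 and from -62 to -53 relative to the start, and Lmcd1 held 1, from -215 to -206. Mrtfa and Klf4, the members that changed in WT VSMC, held none in these windows, nor did Mrtfb, Elk1 and Tcf21. These sequences are shown 5′ to 3′ on the strand of the gene with the CArG box in capitals. Srf is at chr17:46556163-46556412, Lmcd1 (added after its values were seen) at chr6:112273508-112273757, Klf4 at chr4:55532476-55532725 and Mrtfa, whose other listed start held no box either, at chr15:81190737-81190986.
Srf: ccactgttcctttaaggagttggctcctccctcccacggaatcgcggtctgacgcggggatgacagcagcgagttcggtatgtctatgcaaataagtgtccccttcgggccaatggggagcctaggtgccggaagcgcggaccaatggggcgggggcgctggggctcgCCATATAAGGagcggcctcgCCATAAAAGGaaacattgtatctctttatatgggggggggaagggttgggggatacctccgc
Lmcd1: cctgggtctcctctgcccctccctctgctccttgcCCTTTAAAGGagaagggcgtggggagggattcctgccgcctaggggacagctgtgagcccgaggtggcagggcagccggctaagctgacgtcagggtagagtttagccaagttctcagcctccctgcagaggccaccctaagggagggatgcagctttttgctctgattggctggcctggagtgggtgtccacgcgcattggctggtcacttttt
Klf4: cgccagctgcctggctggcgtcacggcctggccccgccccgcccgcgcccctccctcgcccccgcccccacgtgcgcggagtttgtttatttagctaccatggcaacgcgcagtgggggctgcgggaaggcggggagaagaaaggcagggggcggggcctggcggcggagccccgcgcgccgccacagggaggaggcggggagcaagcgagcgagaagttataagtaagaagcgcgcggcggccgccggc
Mrtfa: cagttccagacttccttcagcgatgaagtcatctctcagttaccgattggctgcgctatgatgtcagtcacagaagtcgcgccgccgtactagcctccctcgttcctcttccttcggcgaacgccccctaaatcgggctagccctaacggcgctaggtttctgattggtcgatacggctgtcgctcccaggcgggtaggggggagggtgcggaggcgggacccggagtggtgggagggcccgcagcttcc

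3 further short motifs were counted in the same windows on both strands. GGGCGG, the GC box of the SP and KLF family, was found 4 times in the Klf4 window once in those of Srf and Elk1 and up to 3 times in those of Mrtfb, and 32.7% of all promoters held it. CCGGAA, the core of the ETS family to which ELK1 belongs, was found once in the Srf window and once in 2 of the 3 Mrtfb windows (12% of all promoters). CATTCC, the TEAD element, was found in none of the 4 windows printed above (12.6% of all promoters). A match is a description of the letters and not a test of binding.

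Before the members, the labels were checked against the cells' RNA. Levels are given in FPM, the counts of a gene scaled to a common library size after TMM normalization over all libraries. Egfr averaged 246 to 429.9 FPM in the WT VSMC sets, 36.5 FPM in KO VSMC set 5 and 0.96 to 1.84 FPM in KO VSMC sets 6 to 8, so set 5 kept more of the targeted RNA. EC sets 15 and 16 are labelled wild type but share their animals with KO VSMC sets 7 and 6, and had 9.31 and 2.61 FPM of Egfr. EC sets 10, 12, 14, 17 and 18 had 12.6 to 43.8 FPM, and EC sets 9, 11 and 13 had 133 to 154 FPM. The VSMC held Acta2 at 598 to 2393 FPM, but Myh11, the contractile myosin, only at 2.75 to 10.8 FPM outside set 5, which had 239 FPM. The 9 fibroblast markers summed to 4746 to 13330 FPM in WT VSMC, 1691 to 6714 FPM in KO VSMC and 468 to 2778 FPM in EC. The 15 endothelial markers summed to 391, 443 and 438 FPM in EC sets 9, 11 and 13. The other EC sets had 1057 to 6403 FPM, WT VSMC 292 to 393 FPM and KO VSMC 144 to 247 FPM. EC set 9 thus lay within the WT VSMC range, and EC sets 11 and 13 lay above it. Pecam1 was at 25.7, 42.4 and 18.1 FPM in EC sets 9, 11 and 13, above every VSMC set. The other EC sets had 260 to 1594 FPM of Pecam1. EC sets 11 and 13 also had the highest summed contractile RNA of the EC, 6826 and 6553 FPM. WT VSMC had 3141 to 4404 FPM of it, KO VSMC 3712 to 7898 FPM and EC set 9 had 2721 FPM. Acta2 was at 3186 and 2825 FPM in EC sets 11 and 13, above every VSMC set, and at 734 FPM in EC set 9. Ptprc, the pan-leukocyte marker, was at most at 1.09 FPM and Myh6 of cardiomyocytes at most at 0.03 FPM in every set.

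**Figure D1:**
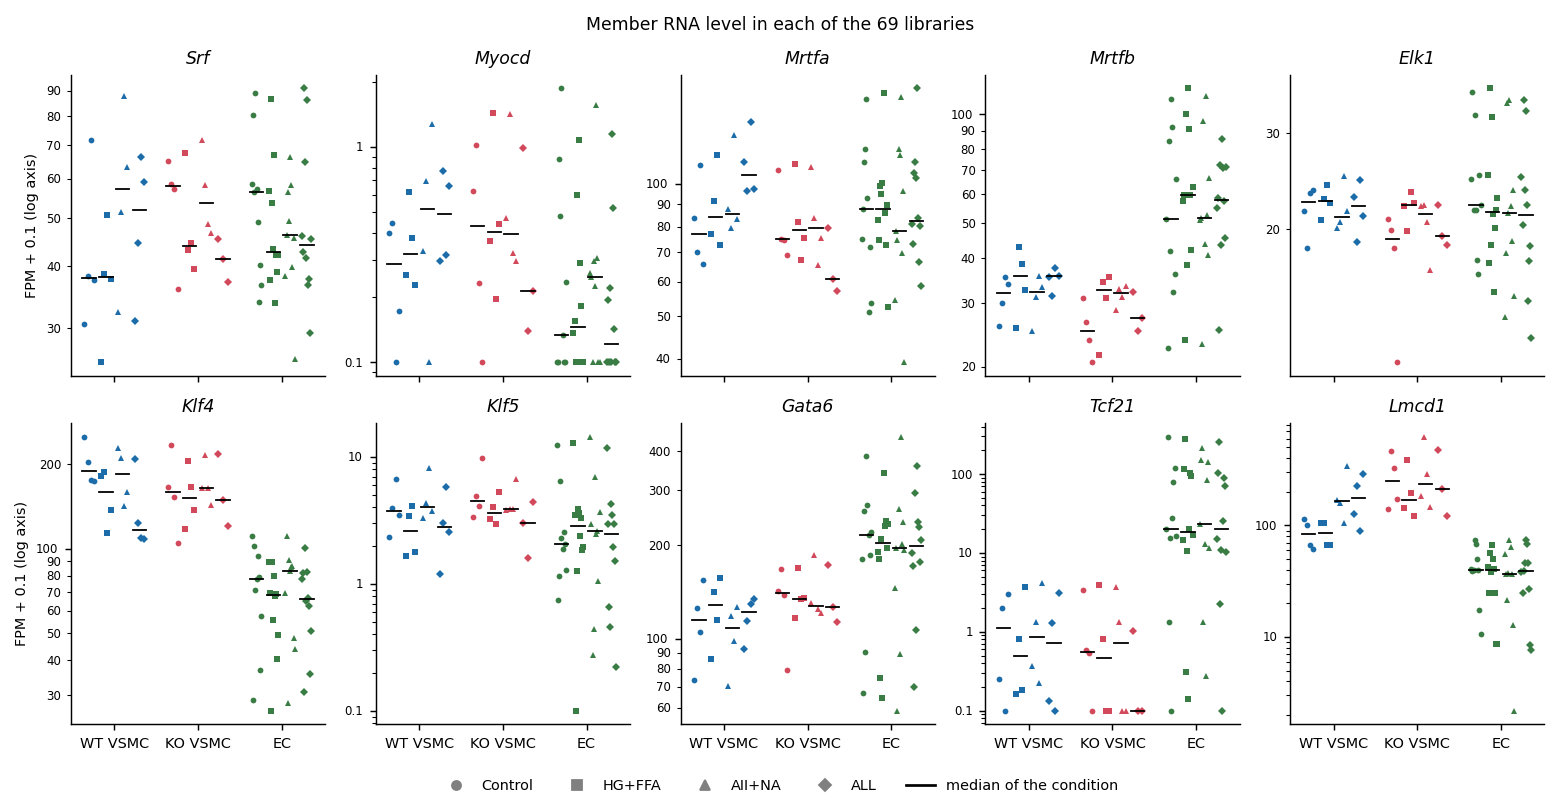
RNA level of the 10 members in each of the 69 libraries, as FPM + 0.1 on a log axis, with 1 panel per gene and the libraries grouped by cell type and condition (marker shape); the bar is the median of the condition. Each gene has its own y axis. Myocd reached at most 1.77 FPM in any library, and Tcf21 ran from 0 to 297 FPM in EC.

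Per kilobase of all exons of the gene, Klf4 and Lmcd1 were the most abundant regulators of WT VSMC in Control, and Myocd had the lowest mean. In FPKM (FPM per kilobase of exon), mean levels in WT VSMC (n = 4, SD) were 63.7 ± 11.4 for Klf4 and 47.3 ± 14.3 for Lmcd1, followed by 12.8 ± 3.11 for Mrtfa, 12.4 ± 3.67 for Gata6 and 10.1 ± 4.17 for Srf. Mrtfa and Gata6, and Gata6 and Srf, differed by less than the larger SD. Elk1 was at 2.87 ± 0.313 FPKM, Mrtfb at 2.15 ± 0.292 FPKM, Klf5 at 0.766 ± 0.350 FPKM, Tcf21 at 0.455 ± 0.518 FPKM and Myocd at 0.0251 ± 0.0236 FPKM. Klf5 and Tcf21, and Tcf21 and Myocd, also differed by less than the larger SD. Mrtfa thus stood above its paralog Mrtfb in all 3 cell types on this scale, at 12.7 against 1.74 FPKM in KO VSMC and 14.2 against 4.09 FPKM in EC.

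In KO VSMC the order began with Lmcd1 at 152 ± 82.6 FPKM and Klf4 at 52.1 ± 17.03 FPKM (n = 4). Gata6, Mrtfa and Srf again lay within the larger SD of each other, at 14.3, 12.7 and 12.3 FPKM. In EC, Tcf21 (23.4 ± 35.1 FPKM, n = 9), Klf4 (23.2 ± 8.92 FPKM), Lmcd1 (23.1 ± 11.2 FPKM) and Gata6 (22.5 ± 10.4 FPKM) could not be ordered, because the neighbours differed by less than their spread.

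Myocardin RNA was barely detected in these cultures. Myocd was counted 0, 2, 10 and 10 times in the 4 Control libraries of WT VSMC and 0, 4, 15 and 32 times in those of KO VSMC. Its highest level was 1.33 FPM in KO VSMC (HG + FFA, set 6) and 1.77 FPM in EC (Control, set 14), and the median of the EC Control libraries was 0.0344 FPM. At such counts no change of Myocd was detectable: the 95% confidence interval of its log2FC under ALL in WT VSMC ran from -0.50 to 2.79.

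The stressor comparisons asked how each condition changed the members against Control of the same set, by edgeR's quasi-likelihood test with the set as a block and Benjamini-Hochberg adjustment (FDR) over all genes tested in the cell type. A member passed at an FDR under 0.05. The study's stricter rule for a differentially expressed gene (DEG) also asks for DESeq2, a |log2FC| of at least 0.64 and 3 FPM. In WT VSMC exposed to ALL, 2 of the 10 members passed (Mrtfa higher, Klf4 lower), where 7.45% of the 16905 genes tested passed (662 higher, 597 lower). Neither of the 2 reached the |log2FC| of the DEG rule. The median log2FC of the members was 0.13 and that of all genes -0.01. In bulk RNA, fewer cells of a type and less RNA per cell cannot be told apart.

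Klf4 fell to 0.669-fold of Control under ALL in WT VSMC. In Control the 4 sets had 250.3, 203, 175 and 173 FPM, and under ALL 208, 124, 108.7 and 108 FPM. ALL was lower than Control in each set, at 0.607 to 0.833 of its level (mean ratio 0.671 ± 0.108, SD, n = 4), while the groups overlap through set 1. The log2FC was -0.58 (SE 0.10, 95% confidence interval -0.80 to -0.36) at an edgeR FDR of 0.0033 and a DESeq2 FDR of 1.29e-05. Klf4 passed with each of the 4 sets left out in turn.

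Mrtfa, the gene of the SRF coactivator MRTF-A, rose 1.36-fold. In Control the sets had 83.8, 70.1, 110.1 and 65.7 FPM, and under ALL 112, 96.3, 138.5 and 97.2 FPM. Each set was higher under ALL, by ratios of 1.26 to 1.48 (mean 1.36 ± 0.0923, SD, n = 4), and the groups overlap because set 3 was high in both. The log2FC was 0.44 (SE 0.08, interval 0.27 to 0.61) at an edgeR FDR of 0.00439 and a DESeq2 FDR of 3.4e-05. Without set 4 the log2FC was 0.40 at an FDR of 0.0576.

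Among the other SRF partners, nothing passed in WT VSMC under ALL. Srf itself was at 30.5, 38.2, 71.5 and 37.5 FPM in Control and 30.97, 44.5, 66.3 and 59.1 FPM under ALL, with a log2FC of 0.19 (FDR 0.331). Mrtfb gave 0.18 (FDR 0.377) and Elk1 0.01 (FDR 0.958, interval -0.16 to 0.18). Elk3 and Elk4, the other ternary complex factors, gave 0.06 (FDR 0.616) and -0.24 (FDR 0.0605).

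Lmcd1 missed the threshold under ALL in this recomputation, although the paper's supplement lists it among the DEGs of WT VSMC under ALL. Its level was 115, 101, 66.8 and 61.7 FPM in Control and 126, 227, 89.7 and 289.7 FPM under ALL. All 4 sets were higher, but by ratios from 1.09 to 4.69, so that the log2FC of 0.97 (SE 0.29) had an FDR of 0.054 (DESeq2 0.0624). Set 4 carried much of that value, since the log2FC was 0.60 (FDR 0.0663) without it and 1.26 (FDR 0.0413) without set 1. Klf5 was lower in 4 of 4 sets with a log2FC of -0.47 (FDR 0.129), and the values of Gata6 (0.08, FDR 0.656) and Tcf21 (-0.40, FDR 0.648) did not pass.

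HG + FFA alone moved no member past the threshold in WT VSMC by edgeR, where 0.538% of genes passed. 2 members had an unadjusted p under 0.05, as did 1892 of 16905 genes. DESeq2 called 1 member, Klf4, among 294 genes. Klf4 was at 181, 188, 113 and 137 FPM, below the Control of its own set in all 4 sets. Its log2FC was -0.39 (SE 0.10, FDR 0.119, DESeq2 FDR 0.0286). Klf5, at 1.55, 3.34, 4.02 and 1.67 FPM against 2.22, 3.88, 6.56 and 3.40 FPM in Control, was also lower in all 4 sets, with a log2FC of -0.61 (SE 0.18, FDR 0.168).

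AII + NA alone moved no member past the threshold in WT VSMC by edgeR either (0.0532% of genes passed), and 0 by DESeq2 (169 genes). At an unadjusted p under 0.05 were 1592 of 16905 genes and 3 members. These 3 were Lmcd1, Srf and Mrtfa, all with positive values. Lmcd1 was at 169.7, 159, 105 and 342 FPM, with a log2FC of 1.07 (SE 0.29, FDR 0.201) that was 0.64 (FDR 0.481) without set 4. Srf was at 32.2, 51.2, 87.8 and 63.1 FPM, 1.06 to 1.68 times its Control in the 4 sets, with a log2FC of 0.39 (SE 0.11, FDR 0.209). Klf4 (log2FC -0.13, interval -0.34 to 0.09) showed no detectable response to AII + NA, and its 4 libraries at 228, 211, 141 and 158 FPM overlap Control.

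**Figure D2:**
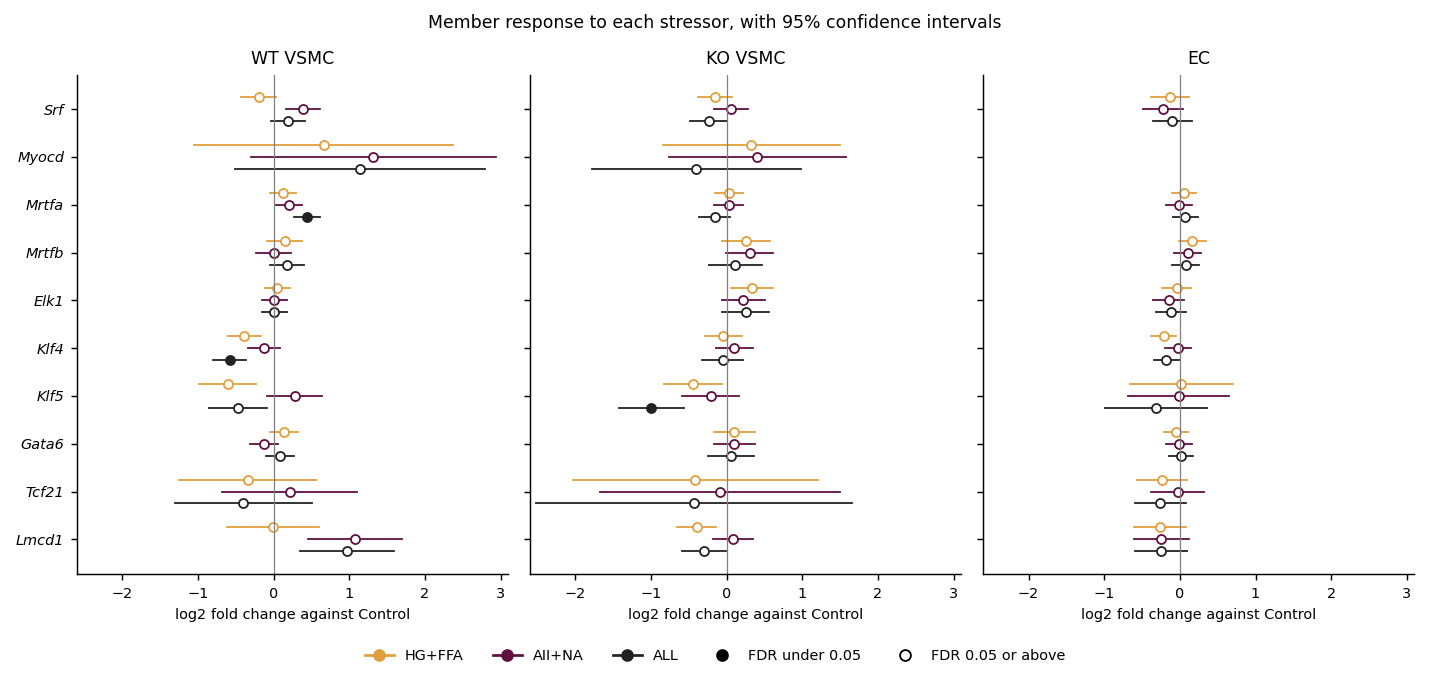
Fitted log2FC of each member against Control for HG + FFA, AII + NA and ALL (colours) in WT VSMC, KO VSMC and EC (panels), with 95% confidence intervals; filled points have an FDR under 0.05. Only Mrtfa and Klf4 under ALL in WT VSMC and Klf5 under ALL in KO VSMC are filled, and Myocd has no value in EC because its counts did not pass the filter.

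In KO VSMC the same comparisons gave 1 passing member, Klf5, under ALL, where 0.399% of 17538 genes passed. Klf5 was at 3.27, 4.81, 4.04 and 9.73 FPM in Control (sets 5 to 8) and at 2.94, 1.51 and 4.29 FPM under ALL (sets 6 to 8). ALL was at 0.374 to 0.610 of Control in the 3 complete sets (mean 0.475 ± 0.122, SD, n = 3), and set 8 was high in both conditions, so the groups overlap. The log2FC was -0.99 (SE 0.20) at an FDR of 0.0467 (DESeq2 0.00102), which met the DEG rule. The call was lost without set 6 (FDR 0.196), set 7 (0.745) or set 8 (0.223), with log2FC of -1.18, -0.84 and -0.94. It held without set 5, which has no ALL library (-1.07, FDR 0.0202).

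The members that passed in WT VSMC did not pass in KO VSMC under ALL. Klf4 was at 165, 234, 152 and 104 FPM in Control and 217, 149 and 120.0 FPM under ALL in KO VSMC, with a log2FC of -0.05 (SE 0.13, interval -0.32 to 0.22). Mrtfa was at 108, 75.0, 74.7 and 68.96 FPM in Control and 79.5, 60.8 and 56.9 FPM under ALL, with a log2FC of -0.16 (SE 0.10, interval -0.37 to 0.05). For both genes the KO VSMC libraries of the 2 conditions overlap. Srf gave -0.24 (FDR 0.489), Lmcd1 -0.30 (FDR 0.447) and Gata6 0.05 (FDR 0.923).

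HG + FFA (0.439% of genes passed) moved 0 of 10 members past the threshold in KO VSMC by edgeR and 0 by DESeq2 (246 genes). An unadjusted p under 0.05 was seen for 3 members and 2181 of 17538 genes. Lmcd1 was at 142, 386, 195 and 120.2 FPM against 141, 467, 329 and 173 FPM in Control, with a log2FC of -0.40 (SE 0.12, FDR 0.233), which was -0.53 (FDR 0.0259) without set 5, where Mrtfb passed too (0.51, FDR 0.021) and 1442 of 16821 genes passed in place of 77 of 17538. Klf5 gave -0.44 (FDR 0.341). Elk1 gave 0.34 (FDR 0.338), but 0.13 without set 8, whose Control library stood apart with 11.3 FPM of Elk1 against 18.4 to 20.7 FPM in the other sets. Under AII + NA, 0 of 10 members passed by edgeR or DESeq2 and 0 had an unadjusted p under 0.05, where 0% of all genes passed by edgeR (1711 at an unadjusted p under 0.05, 11 by DESeq2).

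**Figure D3:**
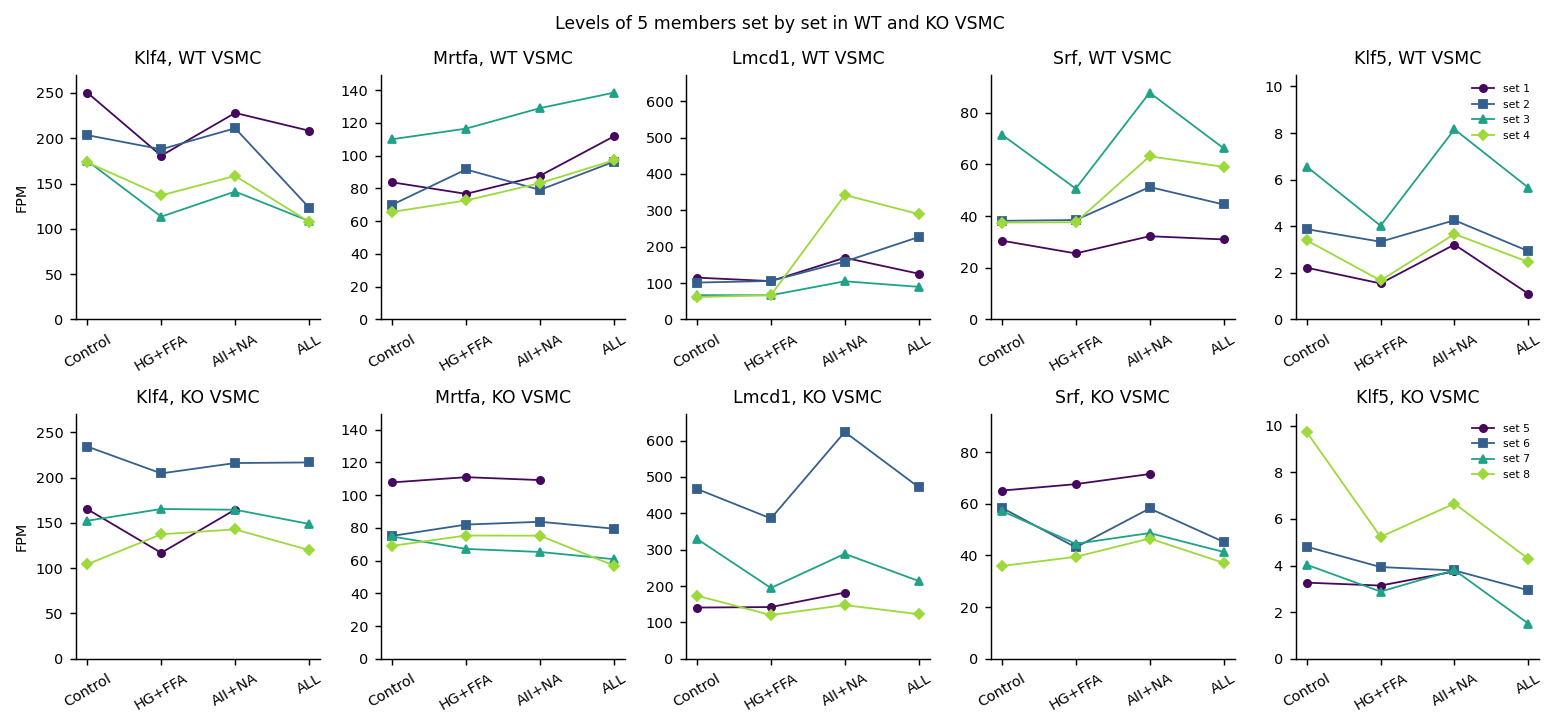
FPM of Klf4, Mrtfa, Lmcd1, Srf and Klf5 in the 4 conditions (x axis) of WT VSMC (top) and KO VSMC (bottom), 1 line per set; the y axis starts at 0 and is shared within a gene. The Klf4 lines of WT VSMC end lower under ALL than in Control in 4 of 4 sets and the Mrtfa lines higher in 4 of 4, while KO VSMC set 5 has no ALL library.

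Whether the response itself differed between WT VSMC and KO VSMC was tested as the interaction of genotype and condition over the 31 VSMC libraries. For ALL, 0.0109% of 18339 genes passed (58 genes by DESeq2), and no member did by edgeR, but 1, Mrtfa, did by DESeq2. An unadjusted p under 0.05 was seen for 4 members and 1361 genes. The ALL effect on Mrtfa was 0.60 higher on the log2 scale in WT VSMC than in KO VSMC (SE 0.12, interval 0.35 to 0.86, FDR 0.112, DESeq2 FDR 0.00275). That on Lmcd1 was 1.28 higher (SE 0.36, FDR 0.307), that on Srf 0.43 higher (SE 0.16, FDR 0.533), and that on Klf4 0.53 lower (-0.53, SE 0.17, FDR 0.384). The WT VSMC call of Mrtfa and Klf4 and its absence in KO VSMC are therefore not shown to differ by edgeR, and the KO VSMC side rests on 3 sets.

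For AII + NA, 0% of genes passed the interaction (2182 at an unadjusted p under 0.05, 0 by DESeq2), and of the members Lmcd1 (1.001, FDR 0.395) and Srf (0.34, FDR 0.412) had an unadjusted p under 0.05. For HG + FFA, 0% passed (564 at an unadjusted p under 0.05, 0 by DESeq2), and of the members Klf4 (-0.34, FDR 1) had an unadjusted p under 0.05.

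The study also asked whether the stressors add up. The paper reports synergy in WT VSMC from numbers of DEGs, slopes of log2FC between conditions and functional assays. A different measure, taken gene by gene, was used here. In WT VSMC its intervals ran from -0.38 to 0.24 for Klf4 and from -0.13 to 0.36 for Mrtfa, so departures of that size were not detectable. The departure of the ALL effect from the sum of the HG + FFA and AII + NA effects on the log2 scale passed for no member in any cell type by edgeR or DESeq2, and 0 members had an unadjusted p under 0.05. Over all genes, 0% passed in WT VSMC (290 at an unadjusted p under 0.05), 0% in KO VSMC (1155) and 0% in EC (1444), with 0 by DESeq2 in each.

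In EC, 9 members could be tested and none passed under any stressor by edgeR or DESeq2, with only Klf4 at an unadjusted p under 0.05. Of all genes, 3.53% passed under HG + FFA (2894 at an unadjusted p under 0.05, 969 by DESeq2). Under AII + NA 0% passed (1143 and 0), and under ALL 3.18% (2774 and 895). Klf4 ran from 28.7 to 111 FPM in Control (median 77.9) and from 30.6 to 100.1 FPM under ALL (median 65.8). Its log2FC was -0.22 (SE 0.08, FDR 0.142) under HG + FFA and -0.18 (SE 0.08, FDR 0.252) under ALL, and the libraries of the conditions overlap widely. Mrtfa gave 0.07 under ALL in EC (interval -0.09 to 0.23) and Gata6 0.01 (interval -0.15 to 0.17). Leaving out EC sets 9, 11 and 13, whose endothelial RNA was low, left 0 members passing in each of these comparisons.

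The difference of the ALL effect between EC and WT VSMC passed for 0.511% of 19362 genes (180 genes by DESeq2). None of the 10 members passed by edgeR or DESeq2. An unadjusted p under 0.05 was seen for 3 members and 1255 genes. The Lmcd1 effect was lower in EC by 1.21 on the log2 scale (-1.21, SE 0.34, FDR 0.102). The Klf4 effect differed by 0.41 (FDR 0.339) and that of Mrtfa by -0.36 (FDR 0.407). Without WT VSMC set 1, the Lmcd1 difference was -1.50 at an FDR of 0.0455.

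In Control, 0 of 10 members passed between KO VSMC and WT VSMC by edgeR and 0 by DESeq2, with 1 at an unadjusted p under 0.05. Over all genes 0% passed (993 at an unadjusted p under 0.05, 32 by DESeq2). That 1 member was Lmcd1, whose 4 KO VSMC Control libraries, at 141 to 467 FPM, lay above the 61.7 to 115 FPM of WT VSMC without overlap (log2FC 1.68, SE 0.49, FDR 0.752). For Mrtfa the difference was -0.02 with an interval from -0.66 to 0.61, and for Srf 0.28 with an interval from -0.38 to 0.94, so differences of that size were not detectable between animals. Among markers of other cells, 0 passed by edgeR in the same comparison, but the median log2FC was -1.57 for fibroblast, -1.37 for endothelial, -1.11 for leukocyte, -0.51 for pericyte, 1.94 for cardiomyocyte and 1.73 for mesothelial and epithelial markers. Their part in the levels was not tested.

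EC and WT VSMC differed in Control in 2 of the 10 members, Klf4 and Tcf21, where 15% of 17638 genes passed. This test took the Control libraries as independent, although EC sets 17 and 18 share an animal and some animals gave both VSMC and EC. Klf4 was lower in EC at 28.7 to 111 FPM, below the 173 to 250.3 FPM of WT VSMC without overlap (0.369-fold, log2FC -1.44, SE 0.29, FDR 0.00523). Tcf21, a regulator of fibroblast and epicardial fate, was higher in EC with a log2FC of 5.72 (SE 1.84, FDR 0.045), but its EC libraries ran from 0 to 297 FPM with a median of 19.9 FPM, and those of WT VSMC from 0 to 2.93 FPM. The Tcf21 call was lost, at FDRs of 0.0542 to 0.121, when any one set was left out of WT VSMC sets 1 to 4 or KO VSMC sets 6 and 7, and at 0.052 without EC set 18. DESeq2 called 3 members, those 2 and Mrtfb, among 3863 genes. By edgeR, Mrtfb (log2FC 0.95, FDR 0.0718, DESeq2 FDR 0.0363), Gata6 (0.89, FDR 0.109) and Lmcd1 (-1.02, FDR 0.0861) missed the threshold.

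The cells called EC differed in other lineage genes as well. In Control 9 of 15 endothelial markers were higher than in WT VSMC and none lower, while of 10 fibroblast markers 7 were lower and 1, Tcf21 itself, was higher. Of the related regulators, Gata4 (log2FC 8.58, SE 0.99), Tbx20 (12.76, SE 1.81) and Gata3 (3.22, SE 0.50) were higher in EC and Nfatc4 (-2.01, SE 0.42) lower. For all these Control differences, cell type and organ of origin (heart or aorta) cannot be told apart. Without EC sets 9, 11 and 13, a choice made after the data were seen, 4954 of 17384 genes passed in place of 2653 of 17638, and 5 members passed: Klf4 (-1.40) and Tcf21 (5.08) as before, and also Mrtfb (1.19, FDR 0.0109), Gata6 (1.19, FDR 0.00448) and Klf5 (-1.15, FDR 0.0402).

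The 10 EC sets differed widely in some members. The set mean of Tcf21 ran from 0.054 FPM in set 14 to 261 FPM in set 11, and that of Lmcd1 from 7.20 FPM in set 18 to 71.7 FPM in set 13. Gata6 lay lowest in set 11 (67.5 FPM) and set 13 (87.8 FPM), of the sets with low endothelial RNA, against 176 FPM in set 9 and 182 to 383 FPM in the other sets. Klf4 was lowest in set 11 at 28.5 FPM, but set 9, which also had low endothelial RNA, had 87.1 FPM. The sets fell into separate groups on endothelial, contractile and fibroblast marker RNA, so no correlation of members with these markers is given.

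**Figure D4:**
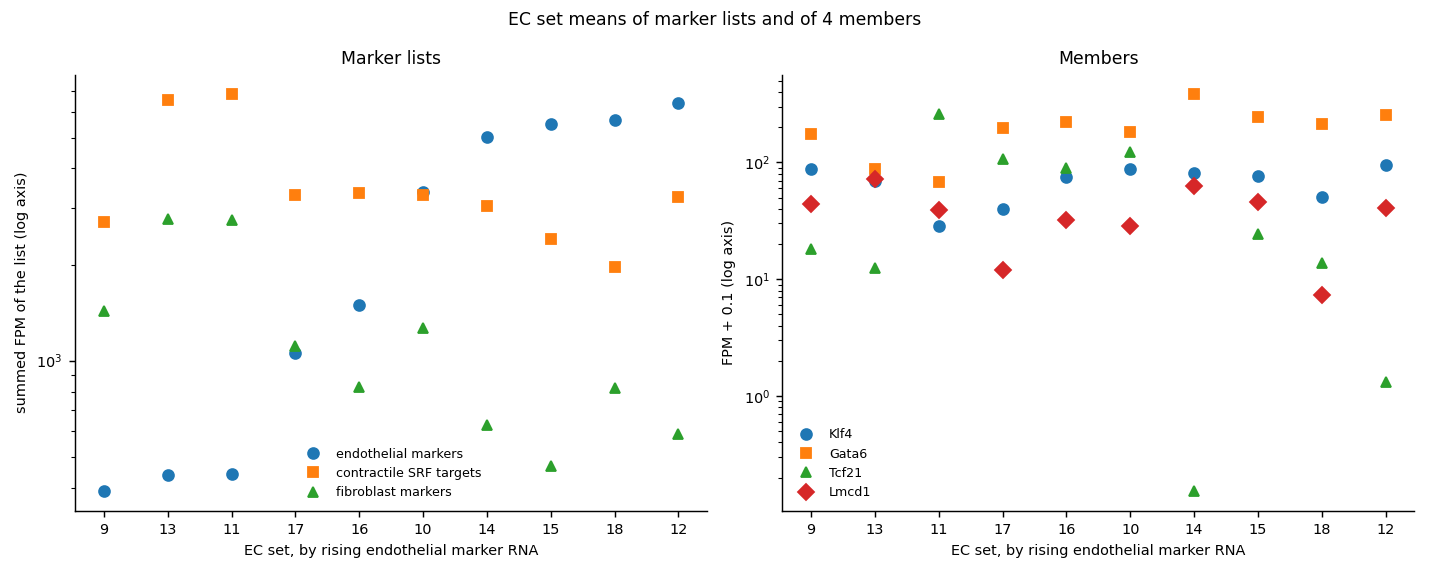
EC set means, with the 10 sets on the x axis ordered by their endothelial marker RNA. The left panel gives the summed FPM of the endothelial, contractile and fibroblast lists and the right panel the FPM + 0.1 of Klf4, Gata6, Tcf21 and Lmcd1, both on log axes; sets 9, 13 and 11 lie lowest in endothelial RNA, and Tcf21 is highest in set 11 and lowest in set 14.

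Known target genes of these regulators were listed as well, in lists chosen with earlier results of these data known. The paper's supplement already gave Mylk, Tagln, Lgals3 and Ly6a as changed under ALL in WT VSMC, so their passing is no independent result. Under ALL in WT VSMC, where 7.45% of all genes passed in either direction, 3 of 21 contractile SRF targets were higher and none lower: Itga8, an integrin of smooth muscle (log2FC 1.76, SE 0.25, FDR 0.000918), Mylk, the myosin light chain kinase (1.11, SE 0.18, FDR 0.00211), and Tagln, an actin-binding protein (0.95, SE 0.26, FDR 0.0361). Tagln was counted at a low level, with WT VSMC set means of 2.95 to 4.70 FPM, and overlap of its exons with other genes was not examined. Acta2 (1.06, FDR 0.0822), Cnn1 (0.84, FDR 0.0628) and Myh11 (0.39, FDR 0.283) did not pass. The median of the list was 0.45 against -0.01 for all genes. Of 20 cytoskeletal MRTF-SRF targets, 7 were higher and none lower (median 0.49), with Fhl1 at 0.54, Tln1 at 0.42, Flna at 0.53 and Ankrd1 at 1.70.

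Of 19 immediate early genes, a list driven through ELK1 and its relatives, Dusp1, a MAP kinase phosphatase, was higher (log2FC 0.91, FDR 0.00495) and Egr1 (-1.05, FDR 0.0262) and Egr3 (-0.94, FDR 0.0314) lower under ALL in WT VSMC, with a list median of -0.18, and Fos gave -0.55 (FDR 0.136). Of 41 related regulators, 5 were lower and none higher, among them Klf2 (-1.04, SE 0.12), Tcf4 (-0.46), Foxo1 (-0.50) and Nfatc4 (-0.42). Of 20 genes tied to phenotypic modulation, 3 were higher and 5 lower, with Tnc at 1.49, Tnfrsf11b at 1.22, Lgals3 at -0.63 and Ly6a at -0.58.

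Markers of other cells moved in the same comparison. Of 10 fibroblast markers, 5 were lower and none higher under ALL in WT VSMC (median -0.52), including Pi16 (-0.85) and Scara5 (-1.31). Of 15 endothelial markers 2 were lower and 1 higher, of 6 pericyte markers 2 lower and 1 higher, of 7 leukocyte markers 1 lower, of 2 cardiomyocyte markers 1 higher, and of 3 mesothelial and epithelial markers 0 passed by edgeR. Their part in the values of Klf4, Mrtfa and the target lists was not tested.

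Under AII + NA alone, where 0.0532% of genes passed, Itga8 (1.62, FDR 0.0278) and Mylk (1.09, FDR 0.0441) were higher in WT VSMC. A positive log2FC was seen in 20 of 21 contractile targets (median 0.54) and 20 of 20 cytoskeletal targets (median 0.49). The median of all genes was -0.01, and none of the cytoskeletal targets passed by edgeR. The genes of a list share their libraries, so their signs are not independent. Under HG + FFA alone, 0 genes of these 2 lists and of the immediate early list passed by edgeR, and the medians were -0.11, -0.02 and -0.02. The AII + NA, HG + FFA and ALL comparisons share their Control libraries, and the differences between them were not tested.

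In KO VSMC under ALL, 0 of 21 contractile targets passed by edgeR (median 0.01), and of 20 cytoskeletal targets only Ankrd1, a mechanosensitive cofactor, was higher (0.88, FDR 0.02; list median 0.05). Dusp1 was higher there (0.67, FDR 0.0247) and Klf15 (-0.81) and Klf2 (-1.06) lower. In the interaction test for ALL between WT VSMC and KO VSMC, 18 of 21 contractile and 19 of 20 cytoskeletal targets had a larger log2FC in WT VSMC (medians 0.64 and 0.46), and 0 of either list passed by edgeR. The largest of the named ones were Itga8 (1.37, FDR 0.223) and Mylk (1.13, FDR 0.224, DESeq2 0.0454). In Control, the log2FC of KO VSMC against WT VSMC was positive in 17 of 20 contractile and 17 of 20 cytoskeletal targets. The medians were 0.82 and 0.60, and 0 of either list passed by edgeR. These signs are not independent either. Over all conditions, summed contractile RNA was 7898 FPM in KO VSMC set 5, which kept Egfr RNA, and 5856 FPM in set 7. Sets 6 and 8, at 4019 and 3712 FPM, lay within the 3141 to 4404 FPM of WT VSMC. Under AII + NA in KO VSMC, 15 of 21 contractile and 15 of 20 cytoskeletal targets had a positive log2FC (medians 0.14 and 0.16), and 0 passed by edgeR.

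In EC under ALL, the contractile list had 1 lower gene of 20, Pgm5 (-0.49), with a median of -0.15. The cytoskeletal list had Ankrd1 higher (0.56) and Ccn2 (-0.44) and Thbs1 (-0.42) lower. Egr1 (-0.82, FDR 0.00106) and Egr3 (-1.17) were lower, as was Klf15 (-0.66), and Klf11 was higher (0.72, FDR 1.07e-05).

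**Figure D5:**
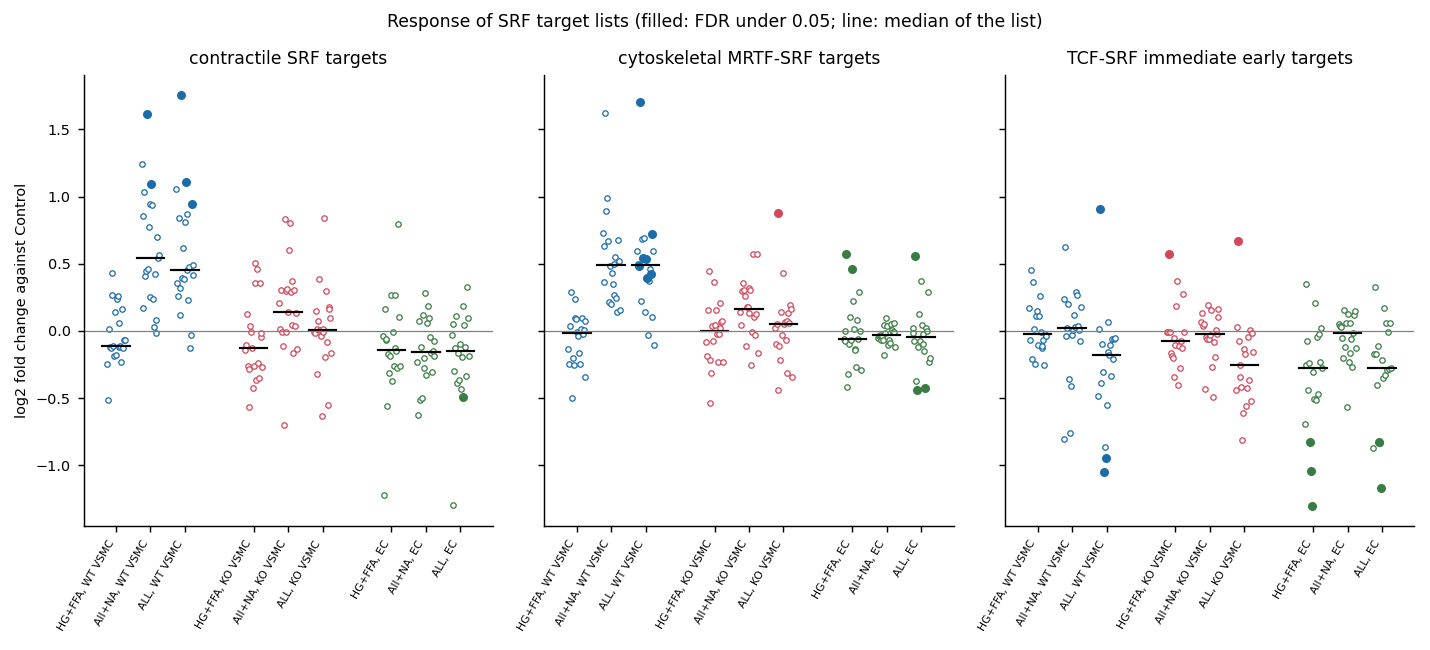
log2FC against Control of each gene of the contractile SRF, cytoskeletal MRTF-SRF and immediate early lists (panels) under HG + FFA, AII + NA and ALL in WT VSMC, KO VSMC and EC (x axis); filled points have an FDR under 0.05 and lines are list medians. In WT VSMC the contractile medians are 0.54 under AII + NA and 0.45 under ALL, and in KO VSMC 0.01 under ALL.

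As a description of patterns over the 18 set means, the protein-coding genes most like each member were listed by Pearson's r of log2(FPM + 0.1) among 11865 genes. The sets share cell type, batch label and depth, and no test was made of these values. Klf4 was most like Slc22a18 (0.948), Eid2b (0.926) and Angpt2 (0.924), and Lmcd1 most like Cdk2ap2 (0.943), Aldh7a1 (0.933) and Cavin1 (0.931). Mrtfb was most like Sft2d2 (0.948), Hunk (0.930) and Hlf (0.927), Gata6 most like Plcd3 (0.930), Ctnnal1 (0.924) and Plxna4 (0.923), and Tcf21 most like Thsd7a (0.934), Itgav (0.925) and Sh3d19 (0.919).

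Mrtfa and Srf had weaker likenesses. The closest genes were Thtpa (0.790), Nol6 (0.778) and Nelfa (0.774) for Mrtfa, and Fam53c (0.841), Cherp (0.820) and Def8 (0.810) for Srf. Klf5 was closest to Zfp607b (0.841), Ddx59 (0.818) and Smarcal1 (0.804), and Elk1 to Adpgk (0.944), Tcf25 (0.905) and Tmem63a (0.868). Myocd stayed below the level set for this listing.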

How the data were processed

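The authors aligned the reads with HISAT2 2.1.0 to mm39, counted them per gene over exons with featureCounts, multiple alignments included, and deposited raw counts for 69 libraries. The strand setting is not given in the sources used here. Symbols, positions and exon lengths came from GENCODE on GRCm39, which held 56310 of the 56953 identifiers, and 0.0241% of counts lay on the others.

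The members and gene lists were chosen with earlier results of these data known. Counts were analysed with R 4.3.3, edgeR 4.0.16 (TMM, filterByExpr, glmQLFit, glmQLFTest) and DESeq2 1.42.0 as the alternative, and figures and tables were made with Python 3.11.15 and matplotlib 3.10.9. Each cell type was fitted with set and treatment, interactions in joint fits with set nested in cell type, and Control levels by group. The Benjamini-Hochberg adjustment covered every gene of a fit. The self-check ran on simulated counts. FPM used TMM over all libraries, FPKM the exonic length, and log2 values a pseudocount of 0.1 FPM.

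Depth was 23626664 to 37801299 counts for WT VSMC, 23238979 to 35120866 for KO VSMC and 17166133 to 43240489 for EC. No pair of libraries of a condition agreed within sampling noise, with a smallest chi-square per gene of 46.2. Same-numbered libraries came from 1 animal and passage, and their deviations from the condition means correlated (mean r 0.818 for WT VSMC, 0.803 for KO VSMC, 0.858 for EC, lowest 0.495, 0.670 and 0.701), so the set number paired them.

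Named were all 10 members in every comparison, at most 4 passing genes of each list and comparison by smallest FDR, a few contractile, immediate early and paralogous genes whatever their result, and the 3 genes most like each member with at least 3 FPM. KO VSMC set 5 under ALL, EC set 10 in Control and EC set 15 under AII + NA were not analysed here.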

Additional observations from a re-analysis of the deposited data

Results flagged for a closer look

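In 19 of 110 groups of member levels, 1 library lay farther from its group than Dixon's 95% limit allows. For normally distributed values chance gives about 5% of groups. The FPM were not log-transformed and all 19 libraries lay on the high side, so the 5% need not hold here. EC set 14 was the set flagged most often. Myocd was high there in every condition, at 1.77 FPM in Control, 0.972 under HG + FFA, 1.47 under AII + NA and 1.04 under ALL, and Mrtfa was at 161 FPM under HG + FFA and 165 under ALL. Klf5 was high in EC set 9 in every condition, at 12.4 FPM in Control, 12.9 under HG + FFA, 14.3 under AII + NA and 11.7 under ALL. Tcf21 was high in EC set 11, at 297 FPM in Control, 277 under HG + FFA and 254 under ALL. As libraries of 1 set share an animal, their values are not independent.

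In VSMC, Klf4 in WT VSMC set 1 under ALL was high at 208 FPM against 124 FPM in the nearest library. In KO VSMC, Mrtfa (108 FPM) and Tcf21 (3.3 FPM) were high in the Control library of set 5, which also kept Egfr RNA. Under AII + NA in KO VSMC, Myocd (1.32 FPM) and Gata6 (186 FPM) were high in set 6 and Klf5 (6.66 FPM) in set 8.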

How the results depend on the processing

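Of 187 recomputed counts of passing members, 157 stayed within 1.5 times the reported count and 30 moved. Of 342 recomputed values of single members, 304 kept direction and side of the threshold, 22 newly passed, 16 no longer passed and 0 turned direction. Without the pairing by set (no replicate block), 0 members passed in WT VSMC under ALL in place of 2 and 0 in KO VSMC under ALL in place of 1, with nearly the same log2FC (Mrtfa 0.43, Klf4 -0.55, Klf5 -0.90), and no other count changed. By the DEG rule as recomputed here, 0 passed in WT VSMC under ALL, whereas the paper's supplement lists Lmcd1 among its DEGs there. With DESeq2, 1 passed in WT VSMC under HG + FFA (Klf4) and 1 in the WT VSMC minus KO VSMC difference for ALL (Mrtfa), both 0 with edgeR. There, 294 genes were called in place of 91 and 58 in place of 2. Without the filter on low counts, 2 passed in WT VSMC under HG + FFA (Klf4, Klf5), 2 under AII + NA (Srf, Lmcd1), 1 in KO VSMC under HG + FFA (Lmcd1), 1 in the AII + NA difference (Lmcd1), 3 in the ALL difference between WT and KO VSMC (Mrtfa, Klf4, Lmcd1) and 1 in that between EC and WT VSMC (Lmcd1), each 0 with it. The genes called rose as well, in all 6 comparisons, for example from 91 to 575 in WT VSMC under HG + FFA, 77 to 598 in KO VSMC under HG + FFA and 2 to 323 in the ALL difference between WT and KO VSMC, and the cause was not tested. With only the 2 groups compared, 1 passed in WT VSMC under HG + FFA (Klf4), 0 in KO VSMC under ALL and 1 between EC and WT VSMC in Control (Klf4), where there are fewer libraries. With complete KO VSMC sets only, which drops set 5, 2 passed under HG + FFA (Mrtfb, Lmcd1), where 1442 genes passed in place of 77. Between EC and WT VSMC in Control, 1 passed without EC set 18 and 5 without EC sets 9, 11 and 13, where 4954 genes passed in place of 2653. Leaving out each set in turn gave 0 to 1 passing members in WT VSMC under HG + FFA, 1 to 3 under ALL (3 without set 1, Lmcd1 added), 0 to 2 in KO VSMC under HG + FFA, 0 to 1 under ALL, 0 to 1 in the ALL difference between EC and WT VSMC and 1 to 2 between EC and WT VSMC in Control.

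Depth limits Myocd most, with 0 to 76 counts in a library, and Tcf21 in VSMC. The KO VSMC comparisons under ALL rest on 3 sets.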

Other observations

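Some animals gave both VSMC and EC, so that the cell types can be set side by side within an animal, over the conditions present in both. For the pairs of WT VSMC set 1 with EC set 9, WT VSMC set 2 with EC set 10, KO VSMC set 7 with EC set 15 and KO VSMC set 6 with EC set 16, the log2 difference of EC minus VSMC was -1.32, -0.99, -1.03 and -1.55 for Klf4 and -1.55, -2.51, -2.43 and -3.93 for Lmcd1. Both were lower in EC in 4 of 4 animals. Tcf21 differed by 6.32, 6.74, 6.63 and 6.55, Mrtfb by 0.94, 0.69, 1.67 and 0.68 and Gata6 by 1.13, 0.55, 0.88 and 0.35, each higher in EC in 4 of 4 animals. Mrtfa was lower in EC in 3 of 4 animals, at -0.30, -0.24, 0.37 and -0.30. With 4 animals, a two-sided exact test of signs cannot reach 0.05, so none was made. Cell type, organ and batch label cannot be told apart here either.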
